A study of Mus musculus with 4 samples.

Results

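The Notch pathway genes Notch1, Notch3, Rbpj, Maml2, Maml3, Hes1, Dtx1, Nrarp, Ptcra and Igf1r were examined for open chromatin in 2 stages of mouse thymocyte development. A peak was assigned to a gene when its midpoint lay inside the gene span of the mm10 genome or within 50 kb of either end. By this rule 272 peaks belonged to the 10 genes, out of 38808 and 33131 peaks in the 2 double-negative (DN) lists and 39718 and 70385 peaks in the 2 double-positive (DP) lists. No peak fell into more than 1 of the 10 windows, and the 10 genes stood among 21883 protein-coding genes that were measured in the same way. Open chromatin was mapped with ATAC-seq, where a transposase cuts and tags accessible DNA, on cells sorted from the thymus and processed at once, without culture; the mice were wild type, of the C57BL/6J strain and 5 to 7 weeks old. DN cells lacked CD4 and CD8 and were sorted as CD25+ with CD44 negative or positive, and DP cells carried both CD4 and CD8. All 4 samples were wild type, and the labels name no treatment. In such bulk samples, fewer cells with an open site and less signal per cell cannot be told apart. Whether both samples of a stage were taken from different mice is not in the labels, so their spread, and any p-value resting on it, may be technical.

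Notch receptors are cut when they bind a ligand on a neighbouring cell, and the freed intracellular part joins the DNA-binding protein RBPJ and a Mastermind-like coactivator (the MAML proteins) on target genes. In the thymus, Notch signals received from epithelial cells commit progenitors to the T cell fate and sustain the DN stages, and they are known to decline once cells have made a T cell receptor beta chain and pass to the DP stage. Hes1, Dtx1, Nrarp and Ptcra are textbook targets of the pathway in early T cells. Accessibility near a gene is not its expression, and no RNA was used here.

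The lists give a p-value per peak and no reads. Sequencing depth is therefore unknown, and a site without a peak may be closed or merely undersampled, which cannot be told apart. Markers set the stage labels against the lists, with peaks counted within 10 kb of a gene. Of the DP markers, Cd4 had 1 and 0 peaks in the DN lists against 9 and 7 in the DP lists, Cd8a 0 and 0 against 4 and 5, and Cd8b1 0 and 1 against 10 and 9. Il2ra, Cd44 and Kit, markers of the CD25+ DN stages, each had a peak in all 4 lists, with 15 and 7 peaks in DN against 18 and 23 in DP. Around 5 T cell markers the DN lists held 9 and 3 peaks and the DP lists 30 in each, and no DN list had a peak at Thy1 or Cd3g. Around 5 markers each, DN and DP lists held 11, 5, 12 and 19 peaks for B cells, 6, 2, 7 and 3 for myeloid cells, 5, 5, 6 and 9 for erythroid cells and 3, 1, 6 and 7 for stromal cells, in the order DN 1, DN 2, DP 1 and DP 2. No list had a peak at the defining genes Ms4a1, Lyz2, Csf1r, Gata1, Hbb-bs or Epcam, and the part of other cell types in the results was not tested.

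The RefSeq promoter table (build GRCm38.p6, the same assembly as mm10) held 11 promoters for 9 of the 10 genes, with none for Hes1. The RBPJ core letters TGGGAA, or the reverse complement TTCCCA, occurred within the 250 bases before an annotated start in 5 of the 11. Of all promoters in the table, 21.6% had such a match. Of the 5, 3 are printed here: a promoter in a DN-only region, a promoter with a peak in both stages and a promoter with no peak. The second Rbpj promoter overlaps the first, and its match is the same site as the TTCCCA of the first. That promoter and the Maml3 promoter are not printed. Each line runs 5′ to 3′ on the strand of the gene and ends at the base before the start, and capitals mark the core letters.
Rbpj, chr5:53590096-53590345, plus strand: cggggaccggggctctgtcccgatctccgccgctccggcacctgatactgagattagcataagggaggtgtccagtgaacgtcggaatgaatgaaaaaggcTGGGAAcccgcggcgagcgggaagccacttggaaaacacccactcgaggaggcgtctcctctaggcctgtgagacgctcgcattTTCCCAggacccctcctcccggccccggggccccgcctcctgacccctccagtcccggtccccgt
Ptcra, chr17:46763713-46763962, minus strand: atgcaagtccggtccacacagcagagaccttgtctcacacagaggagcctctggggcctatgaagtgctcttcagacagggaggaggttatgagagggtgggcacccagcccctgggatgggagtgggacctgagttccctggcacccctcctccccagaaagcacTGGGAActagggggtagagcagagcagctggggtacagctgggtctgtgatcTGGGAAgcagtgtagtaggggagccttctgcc
Maml2, inner start, chr9:13662210-13662459, plus strand: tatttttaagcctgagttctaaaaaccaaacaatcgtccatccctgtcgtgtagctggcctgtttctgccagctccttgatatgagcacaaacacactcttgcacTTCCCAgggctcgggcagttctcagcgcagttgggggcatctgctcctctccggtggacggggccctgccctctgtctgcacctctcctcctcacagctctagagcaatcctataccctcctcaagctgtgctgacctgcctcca
The Rbpj promoter lay in a region held by both DN lists and by neither DP list, apart from its first 5 bases. The Ptcra promoter overlapped a peak in DN 1 and in DP 2, and the inner Maml2 promoter overlapped no peak in any list. In Rbpj the core letters began 149 and 65 bases before the start, and in Ptcra 84 and 32 bases before it.

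Across the 10 windows the DP lists held 94 and 103 peaks, and the DN lists 56 and 19. The mean was 98.5 ± 6.36 (SD, n = 2) in DP and 37.5 ± 26.2 in DN cells, a difference of 61, and both DN values lay below both DP values. Because the lists differ in length, the same numbers were expressed per 10000 peaks of a list, which gave 14.4 and 5.73 in DN and 23.7 and 14.6 in DP. On that scale DN 1 and DP 2 were nearly level. Both DP lists exceeded both DN lists at 7 of the 10 genes, in raw numbers and per 10000 peaks alike. Of all protein-coding genes, 41.8% met the same rule in raw numbers and 29.6% per 10000 peaks. Both DN lists exceeded both DP lists at 0 of the 10 genes on either scale, against 3.61% of all genes in raw numbers and 16.1% per 10000 peaks. With 2 samples per group an exact two-sided permutation test cannot give a p below 0.333. That was the value at each of these 7 genes, so no gene could pass a test on its own. The median difference, DP minus DN, was 4.5 peaks per gene over the 10 genes and 1.5 over all genes. The windows of the 10 genes were also longer, with a median of 146 kb against 117 kb.

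**Figure D1:**
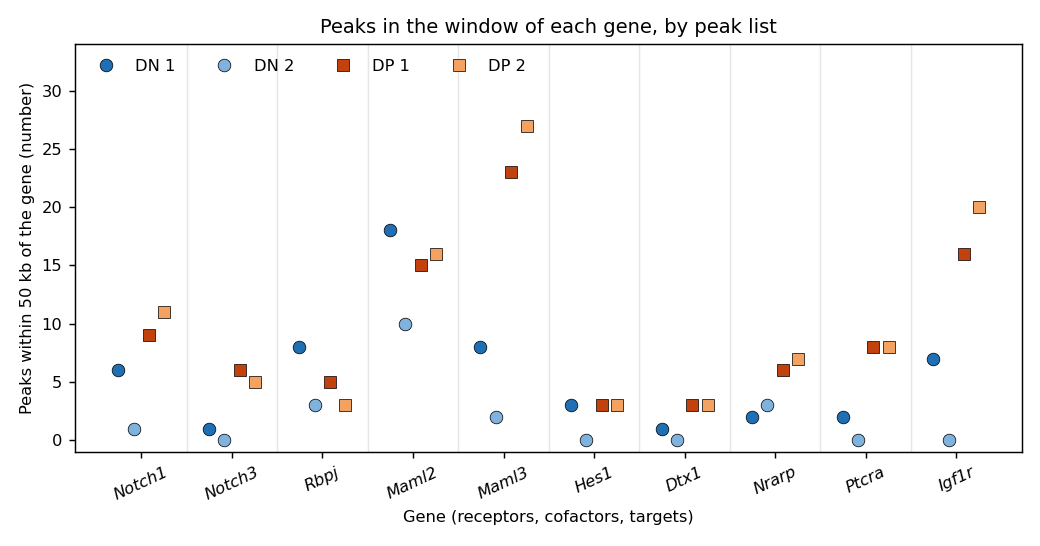
Number of peaks within 50 kb of each gene (y axis) in each of the 4 lists (circles, DN; squares, DP), with genes in the order receptors, cofactors and targets. The DP squares lie above both DN circles at 7 genes, while at Rbpj, Maml2 and Hes1 the groups overlap.

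Peaks of the 4 lists were merged into regions where they shared at least 1 bp. A DN-only region was held by both DN lists and neither DP list, a DP-only region by both DP lists and neither DN list, and a shared region by all 4. The 10 windows contained 126 regions, of which 31 were DP-only, 3 DN-only and 10 shared, while 52 came from 1 list alone. Each of the 10 genes had at least 1 DP-only region, against 44.9% of all protein-coding genes. DN-only regions occurred at Rbpj and Maml2, and 10.6% of all genes had at least 1. Shared regions occurred at 5 of the 10 genes (Notch1, Rbpj, Maml2, Maml3 and Nrarp), close to the 49.1% of all genes. DP-only regions outnumbered DN-only regions at 9 genes, against 43% of all genes, and Rbpj was the exception, a pattern shown by 7.96% of genes. DP-only regions made up 24.6% of the regions in the 10 windows and 7.44% of all 107621 regions, DN-only regions 2.38% and 2.51%, and shared regions 7.94% and 7.39%. Regions from 1 list alone made up 41.3% and 71.8%, so the other classes together had a larger share in the 10 windows. In numbers, all regions held 8006 DP-only, 2703 DN-only and 7955 shared ones, beside 31, 3 and 10 in the 10 windows. The same numbers of DN-only, DP-only and shared regions as at Maml2 were found at 4 protein-coding genes, Maml2 included. Counted likewise, with the gene itself included, there were 8 for Maml3, 21 for Rbpj, 62 for Igf1r and 344 to 1830 for each of the others. These counts depended on which lists were used. When a list was left out, here and below, the classes were set by the lists that remained, which is a looser rule. A DN-only region without DN 2, for example, was held by DN 1 and by neither DP list. DP-only regions numbered 49 without DN 1 and 56 without DP 1, when 14.2% and 45.8% of all regions were DP-only. The number of DN-only regions was 6 when DN 1 was left out and 14 when DN 2 was (19.6% and 18.8% of all regions), and shared regions 28 without DN 2 (14.3% of all regions).

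**Figure D2:**
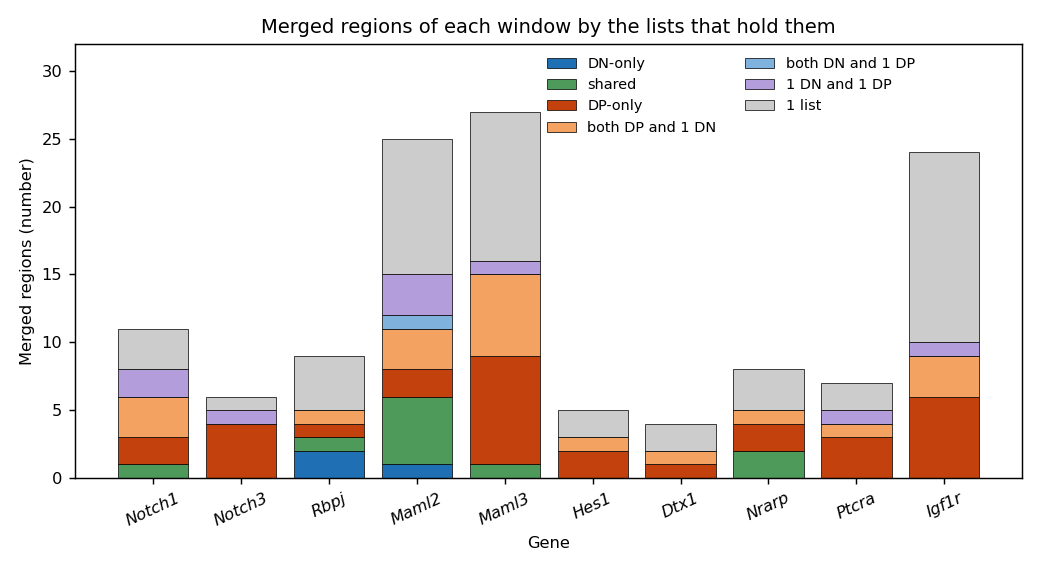
Number of merged regions in each window (y axis), stacked by the lists that hold them. DN-only regions (dark blue) appear at Rbpj with 2 and at Maml2 with 1, whereas DP-only regions (dark orange) reach 8 at Maml3 and 6 at Igf1r.

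Of the receptors, Notch1 is the one that commits progenitors to the T cell fate. Its gene lies on the minus strand at chr2:26457902-26503822. Its window held 6 peaks in DN 1, 1 in DN 2, 9 in DP 1 and 11 in DP 2, or 3.5 ± 3.54 in DN against 10 ± 1.41 in DP cells (n = 2). The groups did not overlap, yet per 10000 peaks DN 1 (1.55) and DP 2 (1.56) were almost equal. The annotated start lay in a region held by DN 1 and both DP lists (chr2:26503201-26504150), as did sites inside the gene (chr2:26468201-26468900) and 9.83 kb before the start (chr2:26513301-26514000). DN 2 had none of these, and its only peak in the window fell in the shared region at chr2:26444951-26446100, which lies inside the neighbouring gene Sec16a. The DP-only region nearest to the gene was at chr2:26507401-26507900, 3.83 kb before the start. The second DP-only region of the window lay at the neighbour Inpp5e (chr2:26408901-26409450).

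Notch3, a receptor known for its expression in immature thymocytes, lies on the minus strand at chr17:32120820-32166896. Its window held 1 peak in DN 1, 0 in DN 2, 6 in DP 1 and 5 in DP 2. The means were 0.5 ± 0.71 in DN and 5.5 ± 0.71 in DP cells (n = 2), and the groups did not overlap. All 4 of its regions found in both lists of a group were DP-only, and 5.94% of all genes had as many DP-only regions. The best ranked of them, at chr17:32164051-32164800, lay inside the gene 2.46 kb from the annotated start. Another lay 3.11 kb before that start (chr17:32169751-32170250), and the other two lay 20.5 and 29.4 kb past the far end of the gene (chr17:32100151-32100500 and chr17:32091151-32091750). The Notch3 promoter itself overlapped no peak in any list. The single DN peak (chr17:32114051-32114400) had the largest p-value of its list and lay under a DP 2 peak.

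Among the cofactors, Rbpj encodes the DNA-binding protein that Notch needs to reach its targets. The gene spans chr5:53555779-53657445 on the plus strand, and its window held 8, 3, 5 and 3 peaks in DN 1, DN 2, DP 1 and DP 2. The means of 5.5 ± 3.54 in DN and 4 ± 1.41 in DP cells overlapped (exact permutation p = 1). The positions of the peaks differed as well, both between the stages and between DN 1 and DN 2. A DN-only region at chr5:53590101-53590700 covered both annotated starts in the table, at 53590346 and 53590486. Its peaks were chr5:53590101-53590700 in DN 1 and chr5:53590201-53590500 in DN 2. A region overlapping a promoter was DN-only for 97 of the 17491 protein-coding genes with a promoter in the table, or 0.555%, against 9.94% with a DP-only and 22.7% with a shared one. The DP peaks next to it (chr5:53588851-53589900 in DP 1 and chr5:53588801-53589950 in DP 2) were 1050 and 1150 bp wide and ended before the promoter.

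Those DP peaks belonged to a shared region (chr5:53588401-53589950) that ended 150 bp before the DN-only one, and merging peaks up to 250 bp apart joined both into a shared region. In that shared region the peak of DN 2 (chr5:53589551-53589950) did not overlap the peaks of DN 1 (the last at chr5:53588951-53589550), and both were linked only through the DP peaks. This held for 64 of the 7955 shared regions, or 0.805%. The second DN-only region, at chr5:53605351-53605900, lay 15.1 kb past the nearer annotated start. In DN 2 its p-value was the largest of the list. Neither DN-only region of Rbpj kept that class in the top 50% of each list, since both lost their DN 2 peak. For the region on the starts, the DN 2 peak shared its p-value with the peaks from 36.8% to 55.8% of the list, and ties at the 50% limit were broken by position. The DP-only region lay 5.77 kb before the first start (chr5:53584301-53584850). Rbpj had 1 more DN-only than DP-only region with all lists, 4 more without DN 2 and equal numbers without DN 1.

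**Figure D3:**
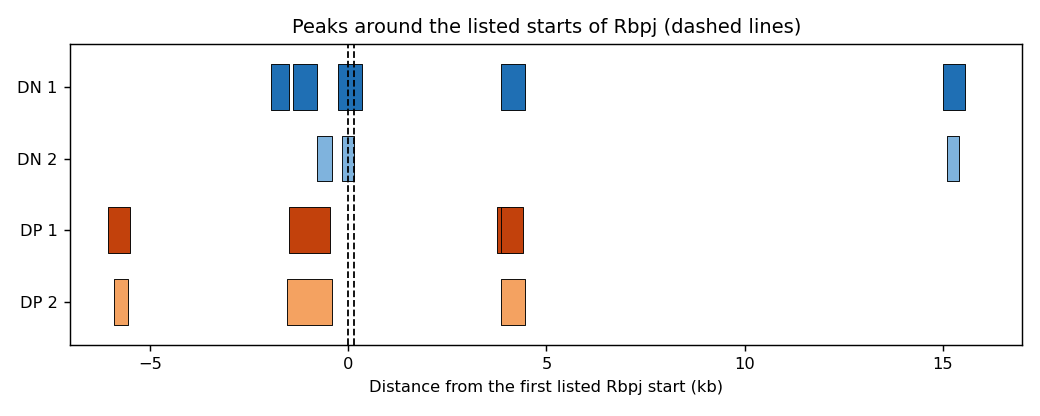
Peaks of the 4 lists (bars, drawn to scale) around the 2 annotated starts of Rbpj (dashed lines), by distance in kb from the first start. Both DN lists have a peak on the starts, and the wide peaks of the DP lists end before them.

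MAML2 and MAML3 are coactivators that bind the Notch and RBPJ complex. The Maml2 gene spans chr9:13296561-13709533 on the plus strand, and its window held 18 peaks in DN 1, 10 in DN 2, 15 in DP 1 and 16 in DP 2. The means of 14 ± 5.66 in DN and 15.5 ± 0.71 in DP cells overlapped (exact permutation p = 1), and DN 1 was the highest list. Per 10000 peaks the DN values were 4.64 and 3.02 and the DP values 3.78 and 2.27, so on that scale the DN mean was the higher. Maml2 carried 5 of the 10 shared regions, a number reached by 1.26% of all genes, together with 2 DP-only and 1 DN-only regions. Its window of 513 kb was longer than the median of 117 kb over all genes. Counted per 100 kb of window, its DP mean of 3.02 peaks stood above 56.0% of genes and its DN mean of 2.73 above 79.3%. The shared region at its lower end (chr9:13296251-13296900) ranked high in every list, at 1.77% of the list in DN 1, 4.97% in DN 2, 12.3% in DP 1 and 6.62% in DP 2. Such a rank is the middle position of a peak and its ties when a list is ordered by p-value, where 0% is best. The shared region at chr9:13443301-13444050, inside the gene, ranked at 10.3 and 2.91% in DN against 21.5 and 23.9% in DP. The DN-only region (chr9:13573751-13574350) also lay inside the gene, and without DN 2 Maml2 had 1 more DN-only than DP-only region in place of 1 fewer.

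Maml3 spans chr3:51687320-52105319 on the minus strand, with a window of nearly the same length (518 kb against 513 kb for Maml2). It held 8 peaks in DN 1, 2 in DN 2, 23 in DP 1 and 27 in DP 2, or 5 ± 4.24 in DN against 25 ± 2.83 in DP cells (n = 2), with no overlap of the groups. It had 8 DP-only regions, the most of the 10 genes, and 0.215% of all genes had as many. Counted per 100 kb of window, its DP mean of 4.83 peaks stood above 77.1% of genes and its DN mean of 0.965 above 40.3%. Of its 8 DP-only regions 6 lay inside the gene. One of these (chr3:52104701-52105300) covered the annotated start and overlapped no DN peak, and a region 2.57 kb inside the gene end (chr3:52102001-52103500) had a peak in DN 1 and in each DP list. The DP-only region of best rank lay at chr3:52046751-52047500. When each list was trimmed to as many peaks as DN 2 has, the DP-only lead at Maml3 was 3 regions in place of 8. It was 13 without DN 1 and 14 without DP 1.

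**Figure D4:**
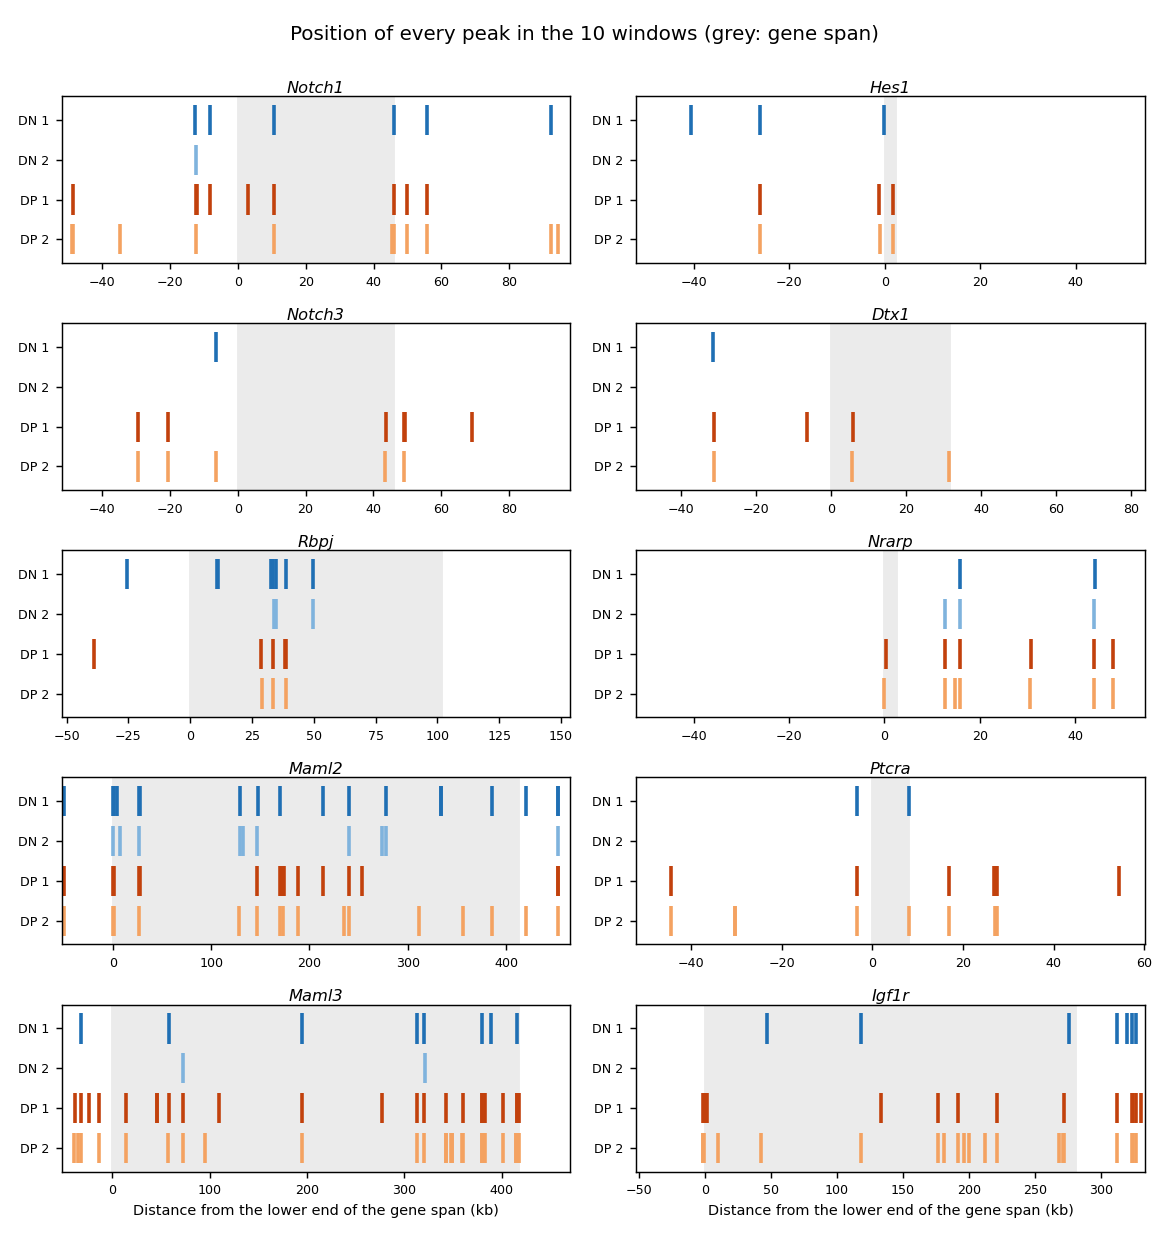
Position of every peak (coloured ticks, at the midpoint) in the 10 windows by list, in kb from the lower-coordinate end of the gene span (grey). DN 2 has 0 peaks at Notch3, Hes1, Dtx1, Ptcra and Igf1r, and the DP ticks of Ptcra and Nrarp lie mostly outside the gene.

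Hes1 encodes a repressor of the basic helix-loop-helix family. It spans 2.44 kb at chr16:30065357-30067796, and no other protein-coding gene reached into its window. The window held 3 peaks in DN 1, 0 in DN 2, 3 in DP 1 and 3 in DP 2, so DN 1 was level with the DP lists and the groups overlapped (exact permutation p = 1). The sites differed all the same. Both DP lists held a region inside the gene, 0.720 kb from its upper end (chr16:30066751-30067400), and a region 1.08 kb below its lower end (chr16:30064051-30064500), and neither DN list did. The inner region ranked at 53.1% in DP 1 and 16.9% in DP 2, and the lower region at 53.1% and 53.0%. Neither region stayed DP-only in the top 50% of each list. DN 1 alone held a peak between these regions at the lower end of the gene (chr16:30065001-30065350). The site 26.1 kb below the gene (chr16:30039001-30039600) had a peak in DN 1 and in each DP list. Without DN 2, Hes1 had equal numbers of DN-only and DP-only regions.

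Dtx1 encodes an E3 ubiquitin ligase of the Deltex family. It spans chr5:120680203-120711867 on the minus strand, and its window had 1 peak in DN 1, 0 in DN 2 and 3 in each DP list. The groups did not overlap, but the total of 7 peaks over the 4 lists was the lowest of the 10 genes. The DP-only region at chr5:120685551-120686150 lay inside the gene, 5.65 kb from its lower end. Its rank was 64.0% in DP 1 and 14.8% in DP 2, and it dropped out in the top 50% of each list. The annotated start was covered by a DP 2 peak (chr5:120711351-120711850) and by no other list. The single DN peak lay at the neighbour Rasal1 (chr5:120648551-120649000), where both DP lists also had a peak.

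Nrarp encodes an ankyrin repeat protein that dampens Notch signalling. It spans 2.58 kb at chr2:25180758-25183339 on the plus strand, and 6 other protein-coding genes reached into its window. The window held 2 and 3 peaks in DN and 6 and 7 in DP cells, without overlap, but few of them were at Nrarp itself. Neither DN list had a peak in the gene or at its start. DP 2 had a peak on the start (chr2:25180401-25180900) and DP 1 a separate peak inside the gene (chr2:25180951-25181250). The 2 shared and 2 DP-only regions were all nearer to other genes, among them the shared region at Tubb4b (chr2:25224251-25225250) and the DP-only region at Nelfb (chr2:25211101-25211750). Within the gene span alone, Nrarp had 0 DN-only and 0 DP-only regions.

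Ptcra encodes the pre-T cell receptor alpha chain, which pairs with the new beta chain in DN cells. It spans 8.05 kb at chr17:46755663-46763712 on the minus strand. Its window held 2 peaks in DN 1, 0 in DN 2 and 8 in each DP list, or 1 ± 1.41 against 8 ± 0 (n = 2), without overlap. Of the 18 peaks 2 were nearest to Ptcra itself, and these were the peaks on its promoter shown above, in DN 1 (chr17:46763501-46764000) and DP 2 (chr17:46763401-46764000). The 3 DP-only regions lay at other genes, 8.94 and 19.2 kb before the start (chr17:46772251-46773050 and chr17:46782401-46783400) and near the far edge of the window at Pex6 (chr17:46711101-46711650). Of the 16 DP peaks 6 fell in the region at Rpl7l1, where the DP 1 peaks overlapped each other. Counting only peaks nearest to Ptcra, the difference between DP and DN was 0. The window as a whole was dense in DP cells, with 7.40 peaks per 100 kb, above 92.3% of genes.

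Igf1r encodes the insulin-like growth factor 1 receptor, which is known as a Notch1 target in T cell leukaemia. It spans chr7:67952257-68233668 on the plus strand. Its window held 7 peaks in DN 1, 0 in DN 2, 16 in DP 1 and 20 in DP 2. The means were 3.5 ± 4.95 in DN and 18 ± 2.83 in DP cells (n = 2), and the groups did not overlap. It had 6 DP-only, 0 DN-only and 0 shared regions, and 1.12% of all genes had as many DP-only regions. Its window of 381 kb was longer than the median of 117 kb over all genes. Counted per 100 kb of window, its DP mean of 4.72 peaks stood above 76.1% of genes and its DN mean of 0.918 above 37.6%. The best ranked of the 31 DP-only regions by mean rank was its inner region at chr7:68128751-68129700, 177 kb past the start, at 8.40% of the list in DP 1 and 13.9% in DP 2. A further one lay 9.49 kb inside the far end (chr7:68223851-68224500). A DP-only region also lay 0.882 kb before the start (chr7:67950801-67951950), while the promoter itself overlapped no peak. Of the 24 regions in the window 14 came from 1 list, 8 of them from DP 2. Without DP 1 the DP-only lead was 15 regions in place of 6, and without DN 2 it was 3.

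Peaks were assigned to the genes by position, and neither width nor rank entered that rule. The genes were chosen with earlier results of these data known, so the values below are descriptive. The 31 DP-only regions had a median width of 600 bp, the same as that of all 8006 DP-only regions. Their median rank was 41.0% in DP 1 and 23.9% in DP 2, and over all DP-only regions it was 41.0% and 25.8%. Of the 31, 16 lay inside one of the 10 genes, 21 were nearest to it, and 9 (29.0%) had their midpoint within 1000 bp of an end of a protein-coding gene, against 26.4% of all DP-only regions. Of those 9, 3 were at an end of a gene described here, namely Maml3, Hes1 and Igf1r. The 10 shared regions had a median width of 875 bp, against 850 bp over all shared regions. Of the 10, 4 (40%) lay at a gene end, against 51.6% of all shared regions, and 1 of the 4 was at an end of Maml2. Of the 3 DN-only regions, 3 lay inside Rbpj or Maml2 and away from the ends of the gene span. Only 7.29% of all DN-only regions lay at a gene end. Regions held by both DP lists and 1 DN list numbered 20, or 15.9% of regions in the 10 windows against 5.77% of all regions. The DN list was DN 1 in 18 of the 20. Over all such regions of the genome it was DN 1 in 84.5%.

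Motif letters were counted in the 11 promoters, each 300 bp long and including 50 bases after the start, on both strands. The RBPJ core TGGGAA was found in 6 of the 11 promoters, belonging to Rbpj, Ptcra, Maml2, Maml3 and Igf1r, and in 25.6% of all 32851 promoters of the table. The match in Igf1r lay after the start. Both Rbpj promoters overlap and share a match, which is counted in each. The RBPJ core was found more than once in the first Rbpj promoter and in the Ptcra promoter, which each had 2 matches, and 3.79% of all promoters had 2 or more. The E-box CANNTG was found in 6 of the 11 promoters against 72.3% of all. The RUNX core TGTGGT, the GATA core AGATAA and the ETS core CCGGAA were found in 0 of the 11, and in 16.8, 11.2 and 14.9% of all promoters. The motifs may overlap each other. A match is a string of letters and not a bound site, and its absence says nothing about the factor.

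For comparison, 40 other genes of the pathway were counted in the same windows. They comprise receptors, ligands, fringe and secretase genes, modulators and further targets. Of the 40, DP-only regions were in the majority at 27, 2 had more DN-only regions and 11 had equal numbers, against 43% and 7.96% of all genes for the first pair of counts. Both DP lists exceeded both DN lists at 24 of them, against 41.8% of all genes, and per 10000 peaks at 15, against 29.6%. The largest numbers of DP-only regions were 4, at Rfng, a fringe glycosyltransferase that modifies Notch, at the ligand gene Jag2, at the corepressor gene Spen and at Cd3e, whose window takes in other genes of the CD3 cluster. Rfng had 0 peaks in each DN list and 5 and 4 in the DP lists. Jag2 had 3 and 0 in DN and 8 and 13 in DP. The genes with more DN-only regions were Jag1, a Notch ligand, and Fbxw7, whose product marks intracellular Notch for degradation, with 1 DN-only region each, and both are named after their values were seen. Jag1 had 4 and 5 peaks in DN against 3 in each DP list, and Fbxw7 had 2 and 3 against 4 and 1. The median was 1 DP-only region per gene in these 40 windows, 2 in the windows of the 10 genes and 0 over all genes.

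**Figure D5:**
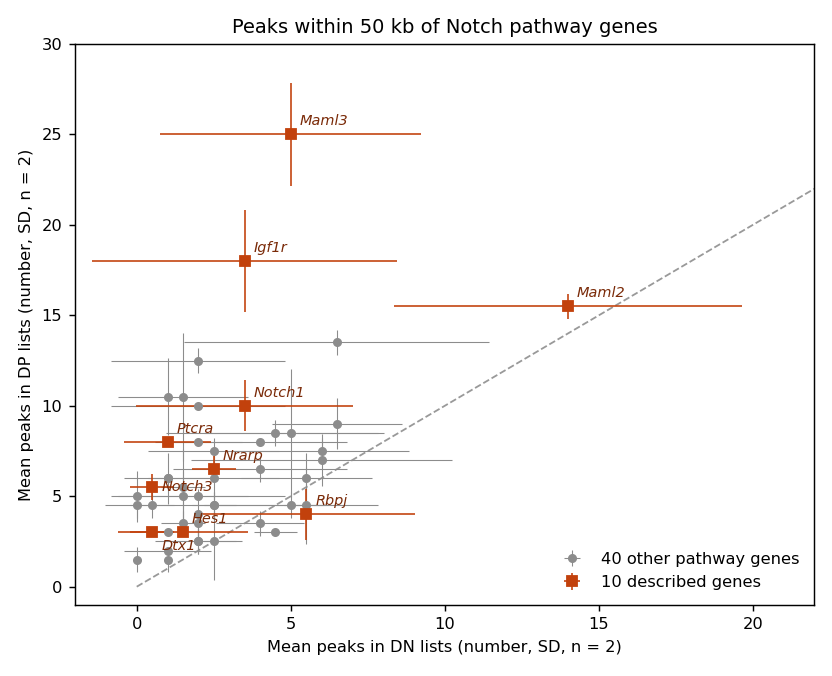
Mean number of peaks within 50 kb in the DN lists (x axis) and the DP lists (y axis), with SD bars (n = 2), for the 10 genes (orange squares) and 40 other pathway genes (grey circles); the dashed line marks equal numbers. Rbpj is the only one of the 10 genes below the line, with 5.5 peaks in DN and 4 in DP, and Maml3 and Igf1r lie farthest above it.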

How the data were processed

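ATAC-seq was measured in 2 DN and 2 DP samples. Each deposited file lists peaks with position and, in the fifth column, a value taken here as the p-value the authors' peak caller gave, since its range fits and no header names it. Bowtie2, Picard and the mm10 build are named in the submitters' processing notes, and the peak caller is known only from the name PeakDEck. The sources used here do not give its settings or say whether depth was equalised. The lists were read per sample, so peaks are not pooled.

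Gene spans came from the RefSeq gene table of GRCm38.p6, which has the coordinates of mm10. Peaks were assigned to a gene by midpoint within 50000 bp of its span, merged into regions when sharing at least 1 bp, and ranked within each list by p-value with ties at their middle rank. Groups were compared over samples with an exact two-sided permutation test per gene. The counting was tested on simulated data. By rule the text names the 10 genes and, for each, its DN-only regions, regions within 1000 bp of its ends and the 2 classed regions of best mean rank; other regions, chiefly further DP-only ones and those in 3 lists, were named after their values were seen. Other pathway genes were named by their number of DN-only and DP-only regions. The members and lists were chosen with earlier results of these data known. No genome sequence was used here, so motifs were sought in promoters and not in peaks. Alternatives covered the window, merging distance, list length, ranks and leaving out each list. The software was Python 3.11.15 with scipy 1.17.1, pandas 2.3.3, matplotlib 3.10.9 and numpy 2.4.6. One DP marker is not reported here.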

Additional observations from a re-analysis of the deposited data

How the results depend on the processing

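The excess of DP over DN peaks kept its direction under every alternative run, but its size moved. From 61 peaks it went to 31 in the gene spans alone, 40 within 10 kb, 81.5 within 100 kb, 39 for peaks nearest to the gene, 35.5 in the top 50% of each list, 38.5 with every list trimmed to the length of DN 2, and 9.07 per 10000 peaks. The 31 DP-only regions became 16 in the gene spans alone and 18 in the top 50%, where 1 DN-only region remained of 3. Of all regions in the top 50%, 12.6% were DP-only, 3.91% DN-only and 11.8% shared. With the full lists these shares were 7.44%, 2.51% and 7.39%. Shared regions were 6 in place of 10 in the gene spans alone, within 10 kb, for regions nearest to the gene, away from gene ends and in the top 50%. Genes where both DP lists exceeded both DN lists were 6 in place of 7 in the gene spans alone (16.2% of all genes, against 41.8%) and in the top 50% (37.7%). They were 6 by nearest gene and 5 away from gene ends, where the share of all genes was not computed. Leaving out 1 list at a time, with classes set by the lists that remained, gave 33 to 56 DP-only regions (9.73% to 45.8% of all regions). DN-only regions were 3 to 14 (3.23% to 19.6%) and shared regions 10 to 28 (9.4% to 14.3%). Genes where the remaining DP lists exceeded the remaining DN lists were 7 to 9 (44.5% to 61.4% of all genes, the highest share with 7 genes without DP 1). The difference was 42.5 to 79.5 peaks. Maml2 had 1 fewer DN-only than DP-only region with all lists (-1) and 1 more without DN 2. Leaving out the other lists gave values down to -4. With the replicate number as a block the difference was 61, from pairs of 38 and 84 peaks. Same-numbered lists had a correlation of 0.289 in their deviations across 21883 genes, and whether the lists share an effect was not tested. The numbers were still not taken to pair the samples, because there are only 2 pairs and the labels tie the numbers to no animal, litter or day. Depth is unknown, so a missing peak need not mean closed chromatin, and no gene could pass a test with 2 samples per group. The causes of these shifts were not tested.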
